A study of Mus musculus with 6 samples.

Results

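Processed pseudogenes with reads were examined together with the protein-coding genes that best matched them in sequence. A row of the deposited count table entered when its biotype was processed pseudogene, its chromosome was an autosome and its reads over the 6 libraries summed to at least 60. The rule kept 588 of 8476 autosomal processed pseudogenes, of which 5772 had no read and 2116 had fewer than 60, in a table of 54532 genes. Members were thus chosen by their summed read count, which pools both groups, and their levels are given as a description. Gm17970, Gm6139 and Gm8971 entered with exactly 60 reads, and Ftl2-ps, Gm11224, Gm13464, Gm5605 and Gm9108 stayed out with 59.

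The libraries come from TM3, an established mouse line that the labels call Leydig cells, the testicular cells that make testosterone. In 3 libraries the cells had received 100 nM pyrotinib for 48 h, and in 3 they had received 0.1‰ DMSO for the same time. Pyrotinib is an irreversible inhibitor of ErbB family receptor kinases used against breast cancer, and the study asks how it harms male reproduction. Whether the pyrotinib wells also held DMSO is not stated in the labels. No label says that the 3 replicates of a group were grown apart, and each p-value therefore reflects variation among these libraries that may be technical.

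A processed pseudogene is a DNA copy of a spliced messenger RNA, made by the reverse transcriptase of LINE-1 elements and inserted elsewhere in the genome. It therefore lacks the introns and usually the promoter of its parent gene, and abundant messages such as those of ribosomal proteins and Gapdh have left many copies in the mouse genome. A young copy can be almost identical to its parent, so that a read from the parent's RNA may be placed on the copy, and the reverse.

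Library totals ran from 15005737 to 16171030 counts, and 3 counts correspond to between 0.184 and 0.200 CPM, the counts scaled to a common library size. CPM were scaled by the trimmed mean of M-values (TMM). Among 8 Leydig markers, Lhcgr had no read, Star had 266 and Insl3 had 247 over the 6 libraries, and the markers summed to 4.37 to 5.50 CPM in DMSO and 6.14 to 7.74 CPM in pyrotinib. Sertoli markers summed to at most 0.384 CPM in any library, and the 4 stromal markers Col1a1, Col1a2, Pdgfra and Vim to 17765 to 19454 CPM. In pyrotinib replicates 1 and 3, the deviation of log2 CPM from the DMSO mean fell by 0.22 and 0.26 per 10 percentage points of GC content over all tested genes, against 0.01 in pyrotinib replicate 2.

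Parents were assigned by sequence, from the best match of each pseudogene's GENCODE M21 transcript to a protein-coding transcript with at least 80% identity over at least 50% of the pseudogene. The best match is called the parent here, although it need not be the gene that was copied. A parent was found for 557 members, 22 of them with tied best genes, and these point to 360 genes. Of 119 members whose symbol carries a parent's name before -ps or -rs, 108 had that same gene as their match. Identity was high, with a median of 98.9% and an interquartile range of 97.6% to 99.6%. It was 100% in 54 members, at least 99% in 267 and under 90% in 30.

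The sequences below show how little separates some copies from their parents, in stretches of 90 bases of the parents' coding sequence. Capitals in a pseudogene mark bases that differ from the parent, and parents are in lower case throughout. All come from GENCODE M21 transcripts on build mm10 and are read 5′ to 3′ along the RNA of the named gene. The first set is Gapdh coding bases 320 to 409 with the same stretch of 3 copies, Gm13394 (chr2:28934201-28934290, minus strand), Gm12070 (chr11:26786952-26787041, plus strand) and Gm5559 (chr5:95862033-95862122, plus strand). Each copy differs from Gapdh at a single base over its whole length, at coding base 346, 361 or 385.
Gapdh: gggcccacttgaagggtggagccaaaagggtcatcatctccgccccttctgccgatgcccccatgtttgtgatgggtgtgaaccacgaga
Gm13394: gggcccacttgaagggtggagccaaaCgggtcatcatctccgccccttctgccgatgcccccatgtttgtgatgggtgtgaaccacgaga
Gm12070: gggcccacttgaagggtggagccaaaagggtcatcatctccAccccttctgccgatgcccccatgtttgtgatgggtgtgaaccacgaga
Gm5559: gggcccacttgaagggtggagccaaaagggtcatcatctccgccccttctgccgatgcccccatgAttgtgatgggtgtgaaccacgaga

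The next pairs are shown because pseudogene and parent had different levels or calls, as given further on. For these and the last pairs, stretches were chosen to hold many differing bases, so they do not give the divergence of the whole copy. Gm10123 (chr9:96895658-96895747, plus strand) is identical to Ppia along its whole length, and its first 90 bases are the first 90 of the Ppia coding sequence. Rps10-ps2 (chr16:20822167-20822256, minus strand) carries 5 differences from Rps10 in the stretch shown, and Rpsa-ps10 (chr3:150073284-150073373, minus strand) carries 2 from Rpsa.
Ppia: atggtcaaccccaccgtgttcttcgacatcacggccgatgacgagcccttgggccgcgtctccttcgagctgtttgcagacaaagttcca
Gm10123: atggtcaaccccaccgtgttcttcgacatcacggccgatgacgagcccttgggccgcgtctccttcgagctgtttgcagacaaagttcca
Rps10: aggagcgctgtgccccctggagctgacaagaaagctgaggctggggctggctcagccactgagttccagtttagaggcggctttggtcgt
Rps10-ps2: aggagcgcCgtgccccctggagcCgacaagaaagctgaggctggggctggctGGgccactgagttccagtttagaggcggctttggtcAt
Rpsa: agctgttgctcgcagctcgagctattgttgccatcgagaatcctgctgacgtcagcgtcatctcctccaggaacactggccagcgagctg
Rpsa-ps10: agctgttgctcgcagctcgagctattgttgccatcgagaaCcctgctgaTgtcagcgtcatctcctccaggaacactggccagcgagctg

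The last pairs are the largest falls, in copies that have diverged further, and a rise. The riser, Gm8121, is about as close to its parent as Rps10-ps2 is to Rps10. Gm8250 (chr19:18581576-18581665, plus strand) differs from Rpl7a at 8 of these bases, Gm18258 (chr7:138899969-138900058, plus strand) from Ggh at 12, and Gm8121 (chr5:57608830-57608919, plus strand) from Immp1l at 3. Over the whole alignments, mismatches were 26 in 794 bases for Gm8250, 86 in 534 for Gm18258 and 5 in 499 for Gm8121.
Rpl7a: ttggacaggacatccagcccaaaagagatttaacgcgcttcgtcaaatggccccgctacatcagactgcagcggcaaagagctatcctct
Gm8250: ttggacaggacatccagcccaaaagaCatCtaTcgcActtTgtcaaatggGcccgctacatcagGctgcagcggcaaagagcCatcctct
Ggh: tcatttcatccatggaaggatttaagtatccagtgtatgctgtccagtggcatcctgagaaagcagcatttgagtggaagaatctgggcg
Gm18258: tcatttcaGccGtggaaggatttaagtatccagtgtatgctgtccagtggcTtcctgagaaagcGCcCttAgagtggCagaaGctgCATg
Immp1l: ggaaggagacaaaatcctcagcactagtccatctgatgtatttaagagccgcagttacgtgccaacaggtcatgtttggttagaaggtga
Gm8121: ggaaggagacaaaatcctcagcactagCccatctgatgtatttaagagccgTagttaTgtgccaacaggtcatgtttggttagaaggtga

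To describe how far reads could be placed, every window of 150 bases, the length of 1 sequenced read, was looked up in the transcripts of all other annotated genes on either strand. Of 583 members at least that long, 65 had all their windows in another gene's transcript, 377 had some and 141 had none. The median share of windows found elsewhere was 27.2%. A read pair can reach past a window, and the sources used here do not say how reads with several possible places were counted. Levels of a copy and its parent are therefore uncertain wherever windows are shared.

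Processed pseudogenes mostly had few assigned reads, with a few abundant exceptions. Whether the reads arose at these loci was not tested. Their median was 2.18 CPM, against 21.7 CPM over all 14125 genes tested, and 410 of 588 were below 5 CPM. The most abundant member, Gm13394, a copy of Gapdh, held 19.0% of the 1102639 reads of all members, and the 10 most abundant held 57.0%. After it came Rpsa-ps10 (mean 1240 CPM), a copy of the gene for a small-subunit ribosomal protein that also serves as laminin receptor, then Gm8730 of Rplp0 (888 CPM), a ribosomal stalk protein. Gm4735, whose best match was the glycolytic enzyme gene Eno1b, had 589 CPM, and Gm15772 of Rpl26 had 538 CPM. Copies closer to their parent had higher levels, with a median of 8.67 CPM in the 54 identical copies, 3.16 CPM in 213 others of 99% or more, 1.90 CPM in 260 of 90% to 99% and 1.21 CPM in 30 below 90%. Across the 557 matched members, identity and mean CPM had a Spearman's rho of 0.37. These points share libraries, and identical copies also share reads with their parents.

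Per kilobase, a median member stood at 16.8% of its parent's FPKM in the deposited FPKM table, and 97 of 557 were above their parent. Gm13394 had a mean of 2270 FPKM, while Gapdh, which carries introns at its own locus on chromosome 6, had 8.99. Rpsa-ps10 had 1431 FPKM against 107.8 for Rpsa, and Gm15772 had 1254 against 179 for Rpl26. Rps10-ps2 had 288 FPKM against 3.36 for Rps10, while the abundant Gm8730 was below Rplp0, at 950.1 against 1580. Rpl29, a large-subunit ribosomal protein gene, was listed at 0.210 FPKM, while its copy Gm13841, named after its values were seen, had 208. Of the 97, 39 had both genes at 5 FPKM or more and 18 had a parent under 1 FPKM.

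**Figure D1:**
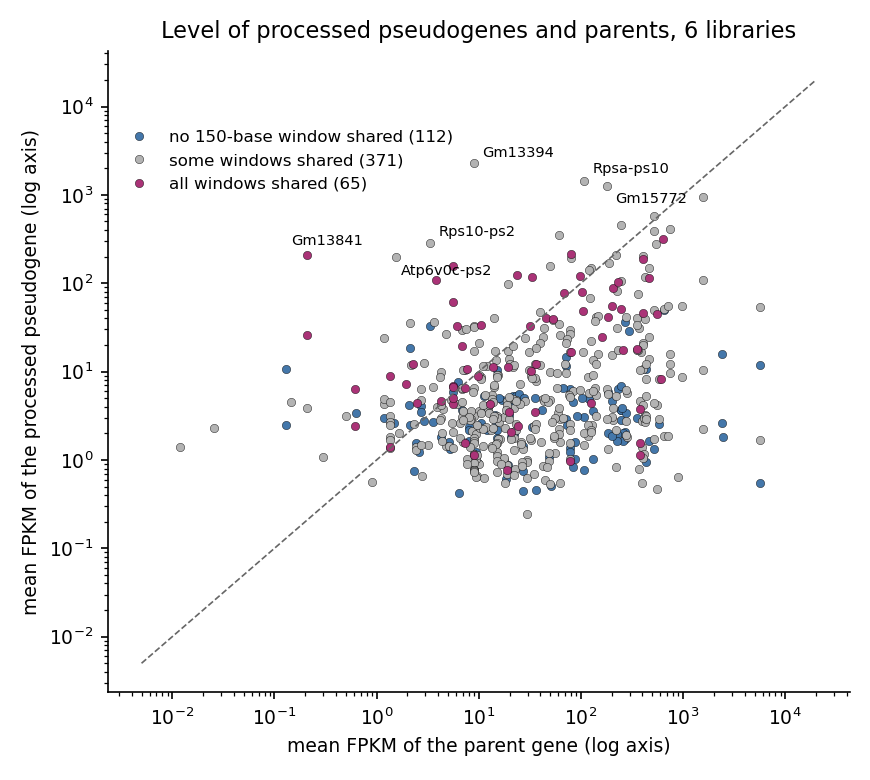
Mean FPKM of each processed pseudogene (y, log axis) against its matched parent (x, log axis) over the 6 libraries, for 552 members whose parent was above 0; the dashed line is equality and colours give the share of 150-base windows found in another gene. Most points lie below the line, with Gm13394 at 2270 FPKM against 8.99 for Gapdh among the farthest above it.

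Processed pseudogenes held a smaller part of the counts in the pyrotinib libraries. They took 1.21%, 1.34% and 1.26% of all counts in DMSO and 0.995%, 1.16% and 1.01% in pyrotinib. Every pyrotinib library was below every DMSO library. The means were 1.27% ± 0.067 and 1.05% ± 0.092 (SD, n = 3 each), a difference of -0.22 percentage points (two-sided exact permutation test, p = 0.1, the smallest this design allows). Without Gm13394 the difference was -0.132 points, and for the 388 members outside protein-coding genes it was -0.117 points, each with groups that did not overlap (exact p = 0.1). In bulk RNA, fewer transcripts per cell and a changed mix of cells cannot be told apart.

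**Figure D2:**
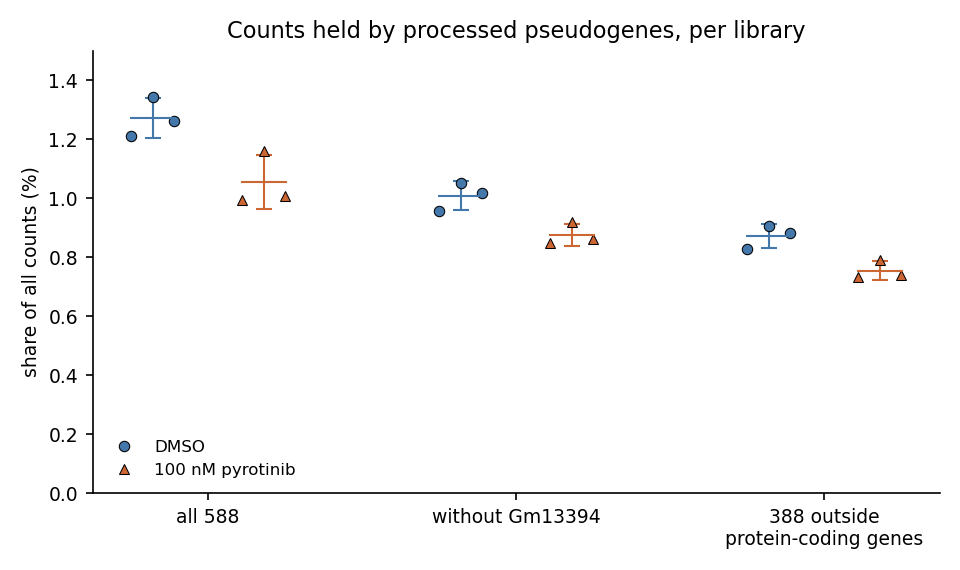
Percent of all counts held by processed pseudogenes in each library (points), with the mean and SD of 3 libraries per group, for all 588 members, without Gm13394 and for the 388 outside protein-coding genes. In each set the pyrotinib libraries, 0.995% to 1.16% for all members, lie below the DMSO libraries, 1.21% to 1.34%.

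Gene by gene, falls outnumbered rises. Of 588 members 579 passed the filter on low counts, and with pyrotinib 69 of these were lower and 11 were higher at an adjusted p under 0.05 (edgeR's quasi-likelihood test, Benjamini-Hochberg over all 14125 genes). Over all genes tested 26.0% were called, 12.8% lower and 13.2% higher, so the members' 11.9% lower was near the background and their 1.90% higher was below it. The groups did not overlap in 130 members, which is 22.5% of those tested against 40.9% of all genes. They were lower with pyrotinib in 105 (18.1%, against 20.3% of all genes) and higher in 25 (4.32%, against 20.6%). The median log2 fold change was -0.19 in members and 0.00 in all genes, and 63.4% of members were below 0 against 49.7%. By level, under 5 CPM 5.74% of 401 members were called against 11.5% of all genes, and at 5 CPM or more 32.0% of 178 were called, 50 lower and 7 higher, against 31.1%.

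The falls did not rest on a single sequence class, but their number moved with single libraries. Members with no shared window had 20 lower and 6 higher of 135 tested (19.3% called, against 26.0% of all genes). Members with every window shared had 14 lower and none higher of 65 (21.5% called). Medians were -0.23 and -0.22, against -0.18 in 374 members with some windows shared. DMSO replicate 2 was the highest of all 6 libraries in 43 of the 69 lower members. Leaving it out gave 33 lower, leaving out pyrotinib replicate 1 gave 41 and pyrotinib replicate 3 gave 30, with 4 higher; leaving out pyrotinib replicate 2 gave 26 higher. The same omissions left 13.5%, 17.7%, 14.9% and 35.9% of all genes called. Lower members had a median GC content of 52.5% and higher members of 44.3%; with a correction of each library for GC content, 72 were lower and 13 higher.

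The 4 most abundant copies of Gapdh, the gene of the glycolytic enzyme glyceraldehyde-3-phosphate dehydrogenase, fell, as did Gapdh itself. All 21 copies passed the filter, and these 4 were lower (19.0%, against 12.8% of all genes) and none was higher. The other 17 were not called, and log2 fold changes over the family ran from -0.97 to 0.74, with 17 of the 21 below 0. Gm13394 (chr2:28933610-28934609, minus strand), inside the body of Cfap77 without touching an exon, had 2561, 3015 and 2457 CPM in DMSO and 1449, 2400 and 1449 CPM in pyrotinib. Its pyrotinib libraries were all below DMSO, with replicate 2 close to them. The log2 fold change was -0.60 ± 0.14 (SE, adjusted p = 0.00522), from 2678 ± 297 to 1766 ± 549 CPM. DESeq2 did not call it (adjusted p = 0.0877). Cfap77 itself, a gene for a protein of cilia and flagella, had 11 reads in all.

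Gapdh had 32.7, 82.1 and 46.2 CPM in DMSO and 17.3, 23.2 and 16.1 CPM in pyrotinib, with no overlap and a log2 fold change of -1.51 ± 0.23 (adjusted p = 0.000197). DMSO replicate 2 was the highest for it, as for Gm13394. The log2 ratio of Gm13394 to Gapdh was higher in every pyrotinib library than in any DMSO library, by 0.78 on average. Gm12070 fell from 38.9 ± 4.37 to 24.7 ± 8.08 CPM (log2 -0.66 ± 0.17, adjusted p = 0.00864) with groups apart. Gm5559 (-0.62) and Gm7336 (-0.64) were lower with overlapping groups, and both calls were lost without DMSO replicate 2 or pyrotinib replicate 1 or 3. Gm5559 was also lost without DMSO replicate 3 and Gm7336 without DMSO replicate 1, and without these libraries the values were -0.60 to -0.46 and -0.55 to -0.47, with adjusted p up to 0.104. DESeq2 did not call Gm5559 either (adjusted p = 0.119). Because reads can move between these near-identical rows, their sum was also taken: Gapdh and its 21 copies had 2720, 3228 and 2637 CPM in DMSO and 1547, 2540 and 1532 CPM in pyrotinib. The copies held 98.5% of that sum, and the mean of the sum was 1.53-fold lower with pyrotinib.

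**Figure D3:**
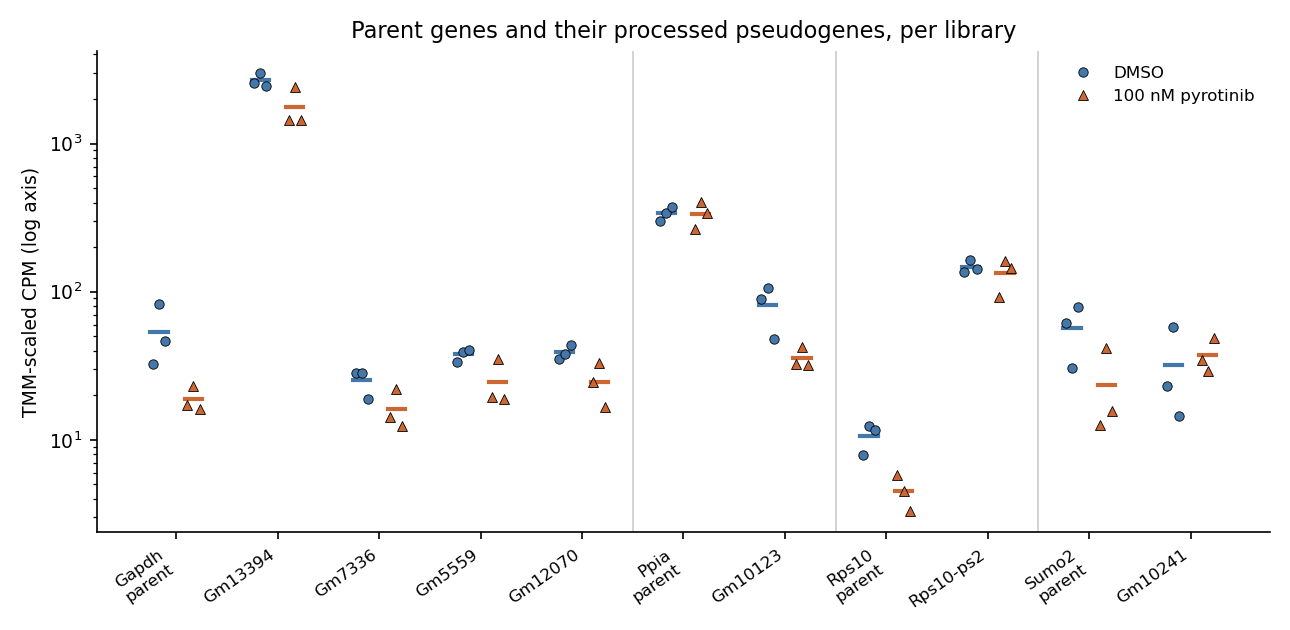
TMM-scaled CPM (log axis) of 4 parent genes and of their processed pseudogenes in each library, with group means as bars. Gapdh and its 4 called copies have lower means with pyrotinib. Gm10123 is lower while Ppia has overlapping groups, and Rps10 is lower while Rps10-ps2 has overlapping groups. Sumo2 has a lower mean with pyrotinib, but its groups overlap, as do those of Gm10241.

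Copies of cytosolic ribosomal protein genes were the largest family. Of 180 members 177 were tested, 28 were lower (15.8%, against 12.8% of all genes) and 2 higher (1.13%, against 13.2%), and their median log2 fold change was -0.23. The ribosomal protein genes themselves had the same median of -0.23 but more calls: of 79 tested Rpl and Rps genes 30 were lower (38.0%) and 2 higher (2.53%). Most of these genes were far more abundant than the copies, whose median was 2.41 CPM. Over all genes 11.5% were called under 5 CPM and 31.1% at 5 CPM or more. The shares of copies and genes called are thus not matched for level. Rpsa-ps10 had 1355, 1614 and 1351 CPM in DMSO and 937, 1255 and 929 CPM in pyrotinib. Its groups did not overlap, although pyrotinib replicate 2 stood above the other 2 pyrotinib libraries, and it fell by 0.47 ± 0.11 on the log2 scale (adjusted p = 0.00393). Rpsa had a log2 fold change of -0.25 (adjusted p = 0.0878), which passed the threshold without DMSO replicate 1 or pyrotinib replicate 1 (-0.37 and -0.36).

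The abundant copies of Rplp0, Rpl26 and Rps3a1 were not called with all 6 libraries. Gm8730 of Rplp0 (-0.21, adjusted p = 0.0826) and Gm15772 of Rpl26 (-0.20, adjusted p = 0.0981) missed the threshold, and both passed it without pyrotinib replicate 2 (Gm8730 also without DMSO replicate 1). Rps3a2 (0.03), a copy of Rps3a1, showed no call. Their parents Rplp0 (-0.09), Rpl26 (-0.09) and Rps3a1 (-0.22) showed none either, although Rps3a1 passed without DMSO replicate 1 or pyrotinib replicate 2 (-0.29 to -0.24) and with the GC correction (-0.24, adjusted p = 0.0302).

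Rpl17, a large-subunit protein gene, and its copies took different directions. Rpl17 had 272, 420 and 305 CPM in DMSO and 507, 469 and 371 CPM in pyrotinib, a rise of 0.43 ± 0.13 (adjusted p = 0.0220) with overlapping groups. Rpl17-ps10 had 343, 308 and 422 CPM in DMSO and 285, 204 and 320 CPM in pyrotinib, a fall of 0.41 ± 0.13 on the log2 scale (adjusted p = 0.0306). Rpl17-ps3 had overlapping values and a log2 fold change of 0.04, and the means of the summed CPM of Rpl17 and its 6 copies differed 1.03-fold. DESeq2 called neither Rpl17 nor Rpl17-ps10. The rise of Rpl17 was lost without any 1 of DMSO replicates 1 and 3 and pyrotinib replicate 1 (0.31 to 0.37), and the fall of Rpl17-ps10 without DMSO replicate 3 or pyrotinib replicate 2 (-0.28 to -0.24).

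Rpl7a, another large-subunit gene, had 12 copies, of which 4 were lower and none higher, while 12.8% of all genes were lower and 13.2% higher. Rpl7a itself varied widely, at 155, 237 and 144 CPM in DMSO and 36.5, 183 and 69.4 CPM in pyrotinib (log2 -0.89 ± 0.34, adjusted p = 0.0622). Pyrotinib replicate 2 lay among the DMSO libraries, and without it the value was -1.75 and passed the threshold. Rps10 and its copy also differed in level and call. In assigned counts Rps10, a small-subunit gene, fell from 10.7 ± 2.42 to 4.52 ± 1.21 CPM (log2 -1.24 ± 0.22, adjusted p = 0.000647). Rps10-ps2 had 135, 163 and 143 CPM in DMSO and 92.8, 161 and 145 CPM in pyrotinib (-0.14, adjusted p = 0.478). Other genes' transcripts held 70.0% of the windows of Rps10-ps2 and 44.2% of those of Rps10. Rps10 and its 2 copies summed to 159, 196 and 173 CPM in DMSO and 112, 181 and 159 CPM in pyrotinib. These sums overlap, and Rps10 held 4.65% of the total. How far the fall of Rps10 reflects read placement was not tested.

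Among the smaller families, metabolic enzyme copies other than Gapdh had 7 lower and 1 higher of 35 tested (22.9% called). Copies of chromatin protein genes had 5 lower and 1 higher of 25 (24.0% called). Over all genes 26.0% were called, 12.8% lower and 13.2% higher. Gm4735, best matched by Eno1b, fell from 642 ± 49.6 to 537 ± 36.5 CPM (-0.26 ± 0.08, adjusted p = 0.0298), and Eno1b fell too (-0.56 ± 0.12, adjusted p = 0.00306). Gm4204 of Nap1l1, a histone chaperone gene, fell from 194 ± 9.53 to 161 ± 15.9 CPM (-0.27 ± 0.09, adjusted p = 0.0316), while Nap1l1 had 0.07 and no call. Both pseudogene calls were lost without any 1 of DMSO replicates 2 and 3 and pyrotinib replicate 3, at values between -0.28 and -0.20. Gm4735 was also lost with the GC correction (-0.13, adjusted p = 0.222). The 15 copies of respiratory chain and ATP synthase genes had 3 lower (20.0%), among them Gm6969 of Cox7a2l, a factor in respiratory supercomplex assembly (-0.42 ± 0.14, adjusted p = 0.0379). Its groups overlapped, and the call was lost without any 1 of DMSO replicates 2 and 3 and pyrotinib replicates 1 and 3 (-0.47 to -0.25); Cox7a2l had -0.02.

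In assigned counts Gm10123, the copy identical to Ppia, stood apart from its parent. All its windows were found in another gene's transcript, so its reads may not be told apart from those of Ppia. It had 89.9, 105 and 47.9 CPM in DMSO and 32.6, 42.0 and 31.8 CPM in pyrotinib. All pyrotinib libraries were lower, with DMSO replicate 3 nearest to them, and the log2 fold change was -1.19 ± 0.19 (adjusted p = 0.000324). Ppia, the gene of the abundant cyclophilin A, had 303, 341 and 375 CPM in DMSO and 267, 401 and 341 CPM in pyrotinib, which overlap (-0.01, adjusted p = 0.946). Ppia and its 2 copies summed to 396, 449 and 427 CPM in DMSO and 301, 447 and 375 CPM in pyrotinib. These sums overlap as well. How far the fall of Gm10123 reflects read placement was not tested. Of the 11 chaperone and cyclophilin copies only Gm10123 was called (9.09%, against 26.0% of all genes).

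Gm10241 and Sumo2, the gene of a small ubiquitin-like modifier, also differed between libraries despite 100% identity. Gm10241 had 23.2, 58.1 and 14.4 CPM in DMSO and 34.6, 29.1 and 48.7 CPM in pyrotinib (0.23, adjusted p = 0.616), and without DMSO replicate 2 its value was 0.99 and passed the threshold. Sumo2 had 61.6, 30.5 and 78.3 CPM in DMSO and 12.7, 42.0 and 15.6 CPM in pyrotinib (-1.28 ± 0.33, adjusted p = 0.00839). Where Sumo2 was low, in DMSO replicate 2 and pyrotinib replicates 1 and 3, Gm10241 had its 3 highest values. The call of Sumo2 was lost without pyrotinib replicate 3 (-1.05) and in DESeq2.

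In the remaining families few members were called. Gm10052, identical to Hnrnpa1, a gene for a splicing factor, fell from 55.3 ± 6.30 to 41.4 ± 9.06 CPM (-0.41 ± 0.13, adjusted p = 0.0273). This was the 1 call among 21 copies of RNA-binding protein genes (4.76%, against 26.0% of all genes). It was lost without DMSO replicate 2 or pyrotinib replicate 1 or 3 (-0.42 to -0.26), and Hnrnpa1 had -0.21 with no call, but passed the threshold without pyrotinib replicate 2 (-0.30) and with the GC correction (-0.31, adjusted p = 0.0309). Translation factor copies had 2 lower and 1 higher of 15 (20.0% called). Cytoskeletal copies had 2 lower of 12 (16.7%), and proteasome and ubiquitin copies 1 lower of 18 (5.56%). None was called among 6 copies of small GTPase and calmodulin genes, 4 tested histone copies and 5 mitochondrial ribosomal copies, whose most abundant members Rab11b-ps2 (0.04), Gm6421 (0.24) and Mrpl48-ps (-0.03) are given as log2 fold changes. The most abundant translation factor copy, Eif4a-ps4 (-0.09), and the cytoskeletal copy Gm12715 of Actg1 (-0.09) were not called, nor was Tpt1-ps3 (-0.02), identical to Tpt1. No member had Ftl1, the ferritin light chain gene, as its best match. Of 2 ferritin copies, Gm15590, closest to the row Ftl1-ps1, which the table lists as protein-coding, fell from 3.21 ± 0.363 to 1.29 ± 0.537 CPM (-1.30 ± 0.35, adjusted p = 0.0106), and Ftl1 fell as well (-1.06 ± 0.14, adjusted p = 4.96e-05).

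The largest falls were in scarce transcripts. Members entered on at least 60 reads summed over both groups, so a scarce one could enter mainly through its higher group. Which scarce members are listed among the largest changes may thus be shaped by this rule. Gm8250, a diverged copy of Rpl7a (94.2% identity), had 26, 41 and 34 reads in DMSO and 3, 2 and 3 in pyrotinib, a log2 fold change of -3.63 ± 0.50 (adjusted p = 8.81e-05). Gm18258 (82.8% identity to Ggh, a gene for gamma-glutamyl hydrolase) had 3.26, 13.9 and 5.30 CPM in DMSO and 0.512, 0.860 and 0.503 CPM in pyrotinib. Every DMSO library was above every pyrotinib library, DMSO replicate 2 most of all, and the fall was 3.56 ± 0.48 on the log2 scale (adjusted p = 6.65e-05). Ggh rose by 0.44 (adjusted p = 0.0402), a call lost when any library other than pyrotinib replicate 2 was left out (0.36 to 0.49) and with the GC correction (0.25, adjusted p = 0.179).

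Gm18258 and Gm8250 kept their calls when any library was left out, at -3.92 to -2.77 and -3.76 to -3.45. The other 6 of the 8 largest falls with groups apart had at most 46 reads in any library. Gm13369 (-2.58 ± 0.54), Gm12396 (-2.18 ± 0.46), Gm47994 (-2.10 ± 0.51) and Gm13622 (-1.99 ± 0.50) were called without any 1 library. Gm16353 (-2.37 ± 0.71), with 10, 31 and 11 reads in DMSO and 6, 4 and 0 in pyrotinib, lost its call without DMSO replicate 2 or pyrotinib replicate 3 (-1.80 to -1.66). Gm17415 (-2.09 ± 0.60), another Rpl7a copy, lost it without DMSO replicate 2 (-1.51). Gm12396, identical to Psenen, a gene for a gamma-secretase subunit, is the 1 of these 8 outside a protein-coding gene; Psenen fell by 0.37 (adjusted p = 0.0375), a call lost when any library but pyrotinib replicate 2 was left out (-0.39 to -0.32) and with the GC correction (-0.28, adjusted p = 0.0746).

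**Figure D4:**
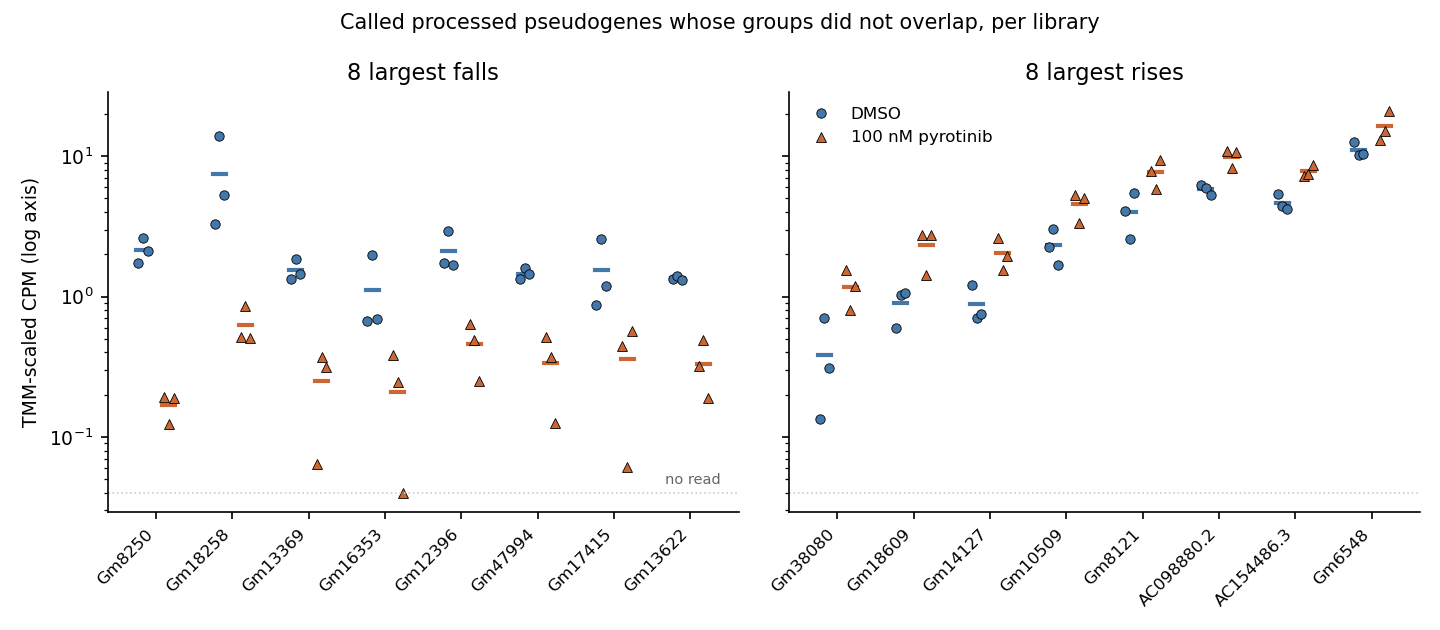
TMM-scaled CPM (log axis) per library of the 8 called members with the largest fall and the 8 with the largest rise among those whose groups did not overlap, with group means as bars; a library with no read is drawn on the dotted line. The falls lie mostly below 5 CPM, and in each panel the DMSO and pyrotinib points are apart.

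Rises were fewer and smaller. The entry rule on summed reads may likewise have shaped which scarce risers are listed. Of the 11 members called higher, 9 had groups apart, and 3 changed by at least 1 on the log2 scale. The largest, Gm38080 (80.0% identity to Rpl13), had 2, 11 and 5 reads in DMSO and 24, 13 and 19 in pyrotinib (1.59 ± 0.55, adjusted p = 0.0420), while Rpl13 fell by 0.45 ± 0.11 (adjusted p = 0.00490). Gm18609, which matched no parent, rose by 1.35 ± 0.40 (adjusted p = 0.0186). Gm14127 rose by 1.20 ± 0.40 (adjusted p = 0.0321), and its parent Mettl23, a methyltransferase gene, by 0.50 ± 0.15 (adjusted p = 0.0194). Each of these 3 pseudogene calls was lost without 4 of the 6 libraries, which always include pyrotinib replicates 1 and 3: DMSO replicates 1 and 3 for Gm38080 (1.20 to 1.58), 1 and 2 for Gm18609 (1.14 to 1.45), and 2 and 3 for Gm14127 (0.98 to 1.23). DESeq2 did not call Gm38080 (1.61, adjusted p = 0.0563). Mettl23 lost its own without any 1 of DMSO replicates 1 and 3 and pyrotinib replicates 1 and 3 (0.34 to 0.50).

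Of the other risers, Gm8121 had 4.06, 2.56 and 5.43 CPM in DMSO and 7.81, 5.84 and 9.36 CPM in pyrotinib (0.93 ± 0.25, adjusted p = 0.0113), and its parent Immp1l, a mitochondrial inner membrane peptidase gene, had 0.30 with no call. The call was lost without DMSO replicate 2 or pyrotinib replicate 3 (0.68 to 0.76), and Immp1l passed without pyrotinib replicate 2 (0.40). Gm6548 of Eef1a1, the elongation factor gene, rose by 0.57 ± 0.17 (adjusted p = 0.0203) while Eef1a1 had -0.09. It lost the call without any 1 of DMSO replicates 2 and 3 and pyrotinib replicate 3 (0.36 to 0.52). Gm10093 of Hdac1 (0.57), Gm8430 of Rps27a (0.49) and Gm11868 of Cyb5r4 (0.51) complete the 11, named after their values were seen.

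Zinc finger pseudogenes on chromosome 17 recurred among the risers, a group noticed after the values were seen. AC098880.2 (chr17:22713782-22716937) rose from 5.82 ± 0.484 to 9.89 ± 1.44 CPM (0.76 ± 0.18, adjusted p = 0.00452). AC154486.3 (chr17:22777217-22807736) rose from 4.64 ± 0.608 to 7.78 ± 0.778 CPM (0.75 ± 0.19, adjusted p = 0.00852), and Gm10509 (chr17:21690180-21691022) from 2.32 ± 0.664 to 4.55 ± 1.08 CPM (0.97 ± 0.28, adjusted p = 0.0173). AC098880.2 and AC154486.3 have lengths of 2370 and 1533 bases, less than their spans, and match their parents at only 80.2% and 82.1% identity. Whether they are copies of spliced RNA was not tested. For all 3 risers, no 150-base window was found in another transcript. Their best matches were Gm13212 (-0.03, no call), Zfp946 (0.58, adjusted p = 0.0420) and Zfp983 (0.42, adjusted p = 0.105); Zfp946 lost its call without any library but pyrotinib replicate 2 (0.43 to 0.63), and Zfp983 passed without that one (0.58). Of 9 members whose parent or description names a zinc finger, 3 were higher, none was lower and 7 were above 0. Over all genes 13.2% were higher and 12.8% lower, and over all tested members 1.90% and 11.9%. The 9 had a median GC content of 41.7%, against 50% in all members. With the GC correction AC154486.3 (0.44, adjusted p = 0.0880) and Gm10509 (0.70, adjusted p = 0.0588) were no longer called, nor was Zfp946 (0.28, adjusted p = 0.232). Gm10509 also lost its call without DMSO replicate 3 or pyrotinib replicate 1 or 3 (0.78 to 0.90).

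Position relative to protein-coding genes was read from the coordinates of the count table. Outside every protein-coding gene lay 388 members, of which 384 were tested, 44 lower and 10 higher (14.1% called, against 26.0% of all genes). Inside a gene body but off its exons lay 196, with 191 tested, 25 lower and 1 higher (13.6% called). Exons were touched by 4, none of them called. On the strand opposite to the host gene 21 of 115 were lower and 1 higher (19.1% called), with a median log2 fold change of -0.30. On the same strand 4 of 76 were lower (5.26%), with a median of -0.14. Over all genes 12.8% were lower and 13.2% higher. Of the 8 largest falls named above, 7 lie inside a gene body on the opposite strand. The sources used here do not say whether reads were assigned by strand, so reads from unspliced host RNA cannot be told apart from pseudogene reads.

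Host genes were called lower for 5 of 21 lower members whose host was tested (23.8%), higher for 1 and not called for 15. Over all 155 members in gene bodies with a tested host, the host was lower for 18 (11.6%) and higher for 24 (15.5%). Bnip3, a mitophagy receptor gene and the host of Gm18258, had a log2 fold change of 0.17 with no call, and Myo5a, Txndc5, Hdlbp and Ppig had -0.04, -0.18, -0.08 and 0.01. Ostf1, the host of Gm8250, fell by 0.32 (adjusted p = 0.0422) and Pnpla7, the host of Gm13369, by 0.37 (adjusted p = 0.0217). Ostf1 lost its call without any library but pyrotinib replicate 2 (-0.35 to -0.20) and Pnpla7 without any but pyrotinib replicates 2 and 3 (-0.40 to -0.29), and Txndc5 passed without pyrotinib replicate 2 (-0.28). Ppig passed with the GC correction, at -0.24 (adjusted p = 0.0201), and Pnpla7 did not (-0.28, adjusted p = 0.0564). Across the 155 members the log2 fold changes of member and host had a Pearson's r of 0.21, with 0.30 in 97 on the opposite strand and 0.05 in 58 on the same strand, a description over genes that share the same 6 libraries.

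The parents were mostly called lower where they were called: of 346 tested parents 81 were lower (23.4%, against 12.8% of all genes) and 27 higher (7.80%, against 13.2%). Of 64 lower members with a tested parent, the parent was lower for 28 (43.8%), higher for 3 and not called for 33, while over all 536 pairs the parent was lower for 142 (26.5%). Of 10 higher members, the parent was higher for 4, lower for 1 and not called for 5, while over all pairs it was higher for 35 (6.53%). No test of these shares was made. Among the listed parents outside the ribosome, Fth1 (-0.35), Ptma (-0.32) and Hmgn1 (-0.28) fell as did Gapdh and Ftl1, and Tuba1b rose (0.29), out of 13 tested; Actb, Actg1, Npm1, Hmgb1, Eef1a1, Hnrnpa1 and Ppia were not called. Across 536 pairs the log2 fold changes of pseudogene and parent had a Pearson's r of 0.23 and a Spearman's rho of 0.30. Pearson's r was 0.10 in the 63 pairs with all windows shared, 0.29 in 363 with some and 0.22 in 106 with none. Pairs share libraries, and several pseudogenes share a parent or reads with it, so these are descriptions.

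The log2 ratio of pseudogene to parent gives the same comparison within each library. In 101 of 535 pairs (18.9%) the ratios of the 2 groups did not overlap, 55 of them lower and 46 higher with pyrotinib. The largest were Gm18258 to Ggh (-3.80), Gm8250 to Rpl7a (-2.53) and Gm13369 to Gm6793 (-2.36) among falls, and Gm38080 to Rpl13 (2.34) among rises, followed by 3 scarce Gapdh copies, Gm2574 (2.03), Gm10284 (1.86) and Gm3200 (1.78), against a parent that fell. Among abundant members, the ratio of Gm10123 to Ppia changed by -1.10. The ratio of Tpt1-ps3 to Tpt1 also had groups apart, although neither gene was called.

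**Figure D5:**
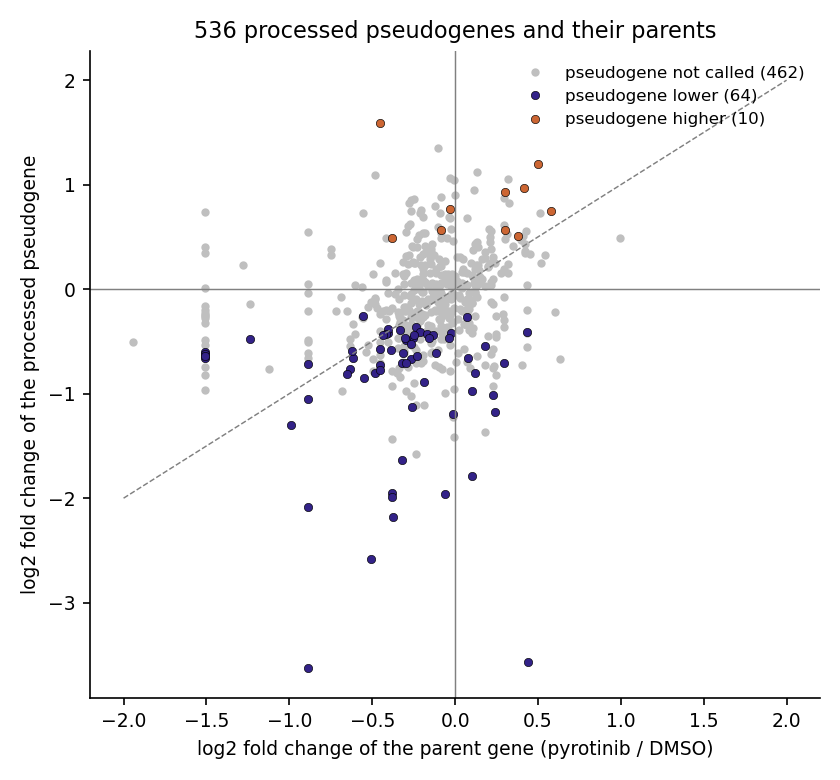
Log2 fold change of 536 tested processed pseudogenes (y) against that of their parents (x), pyrotinib over DMSO, by the pseudogene's call; the dashed line is equality. Most of the 64 lower members lie below the line and most of the 10 higher members above it, which grouping by their own fold change favours. The columns of points at single x values are copies of the same parent, such as Gapdh at -1.51.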

How the data were processed

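RNA was measured in 6 TM3 libraries from poly-A selected RNA, 3 per group. The authors deposited read counts per gene, made per the submitters' processing notes with tools that include fastp, HISAT2 2.0.5 and featureCounts 1.5.0-p3 on mm10, and DESeq2 1.20.0 is listed as well. The authors also deposited FPKM per gene, used here only for levels between genes and as an alternative. The sources used here state neither the annotation release nor the strand setting nor the treatment of reads with several places; such reads could be lost or placed on a copy in place of its parent.

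Counts were tested with edgeR 4.0.16 in R 4.3.3 by its quasi-likelihood test, after filterByExpr (minimum count 10, minimum total 15) and TMM scaling, with Benjamini-Hochberg adjustment over 14125 genes and a threshold of 0.05. The SE of a log2 fold change is its size divided by the square root of F. The code was tested on simulated counts. Parents came from blastn 2.17.0 against GENCODE M21 transcripts (expectation limit 1e-10), where 580 of the 588 members lie at the position that the count table gives. Shares of counts were compared by an exact permutation test (scipy 1.17.1).

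The alternatives were DESeq2 1.42.0, median-ratio size factors, other filters, limma 3.58.1 on log2(FPKM + 1) and log2(FPKM + 0.1) with a minimum mean of 0.5 FPKM, a lowess correction for GC content (span 0.3), a replicate block, leaving out each library, and members outside genes. Named members are the 12 most abundant, the 8 largest rises and 8 largest falls among called members whose groups do not overlap, the most abundant of each family with at least 3 members, up to 4 Gapdh or Ftl1 copies by level, and the parents and hosts of all these. An abundant member and its parent are not reported here. The members, families and lists were chosen with earlier results of these data known. Zero floors of 3 counts cover counting error only.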

Additional observations from a re-analysis of the deposited data

How the results depend on the processing

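The counts of 11 higher and 69 lower members kept within 1.5 times under DESeq2 (10 and 59), median-ratio size factors (11 and 70), a minimum count of 30 (10 and 61) and the GC correction (13 and 72). Without a filter on low counts 19 were higher. On FPKM, limma called 44 lower with a pseudocount of 1 and 45 with 0.1. Members outside protein-coding genes had 44 lower and a median log2 fold change of -0.14; the GC correction also gave a median of -0.14. The members with no shared window, an alternative chosen after seeing the data, had 6 higher and 20 lower; these last sets hold fewer members. Leaving out 1 library at a time gave 4 to 26 higher, 30 to 94 lower, a median of -0.20 to -0.14 and a difference in share of -0.271 to -0.182 points. Same-numbered libraries of the 2 groups had correlations of 0.00, 0.08 and 0.02 between their deviations from the group means, so the numbers were not taken as pairs, although each pyrotinib library but replicate 3 correlated best with its own number. A replicate block called 16 higher and 83 lower members and 4265 of all genes.

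Of 80 named genes 42 were called, and 14 of these stayed called under all 10 settings run for single genes. Values that changed sign belonged to genes that were not called. With the GC correction these were Rps3a2 (-0.00505), Gm12715 (0.027), Rpl26 (0.0558), Nap1l1 (-0.14), Ppig (-0.24) and Yeats2 (0.0189), and with the block Gm13212 (0.0167). Leaving out 1 library gave ranges of -0.0209 to 0.0898 for Actg1, -0.10 to 0.11 for Cox7a2l, -0.16 to 0.0319 for Eif4a-ps4, -0.12 to 0.99 for Gm10241, -0.19 to 0.0557 for Gm12715, -0.33 to 0.18 for Gm13212, -0.20 to 0.11 for Mrpl48-ps, -0.0743 to 0.0265 for Myo5a, -0.16 to 0.13 for Ppia, -0.0132 to 0.0384 for Ppig, -0.0867 to 0.20 for Rab11b-ps2, -0.12 to 0.20 for Rpl17-ps3, -0.30 to 0.0606 for Rps10-ps2, -0.0283 to 0.13 for Rps3a2 and -0.0846 to 0.0366 for Tpt1-ps3. The cause of these changes was not tested. Under 5 CPM 5.74% of tested members were called, against 11.5% of all genes at that level; the part of depth in this was not tested.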
